A study of Mus musculus with 9 samples.

Results

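Vesicular glutamate transporters load glutamate, the main excitatory transmitter of the spinal cord, into synaptic vesicles, and their presence is the usual mark of a neuron that releases it. The genes described here are Slc17a6, which encodes VGLUT2, Slc17a7, which encodes VGLUT1, Slc17a8, which encodes VGLUT3, and Slc1a1, which encodes EAAC1, a carrier that takes glutamate and cysteine back into neurons. They were found by gene symbol in the platform's annotation, which held 6 of the array's 45037 probe sets: 2 for Slc17a6, 1 for Slc17a7, 3 for Slc1a1 and 0 for Slc17a8. Slc17a8 therefore has no value here, and of the 4 genes 2, Slc17a6 and Slc1a1, lay above the filter on dim probe sets and were tested among 13959 genes.

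In the spinal cord VGLUT2 is known as the transporter of most excitatory interneurons, whose cell bodies lie in the dorsal horn, the intermediate zone and the ventral horn. VGLUT1 in the cord lies mainly in the endings of large sensory fibres and of the corticospinal tract, whose cell bodies are outside the cord, so that little of its messenger RNA is made there. VGLUT3 marks a small set of sensory neurons and deep dorsal horn neurons. A proton pump powers all of them, and the glutamate they load comes largely from glutamine that astrocytes release.

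RNA came from intermediate, dorsal and ventral pieces of the spinal cord of 3 mice of the GAD65-GFP genotype at postnatal day 6. All 9 arrays share this genotype, which carries a GFP reporter driven from the gene for the GABA-making enzyme GAD65. Each animal gave 1 piece of each region, so that n = 3 per region. The labels mention no sorting of cells, so values stand for whole tissue, and in such pieces fewer cells of a type and less RNA per cell cannot be told apart.

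The deposited values were read as log2 expression, and between 35.97% and 36.26% of an array's probe sets stood within 0.01 of the lowest value, 2.15, called the floor. Array medians lay between 3.66 and 3.75. Of the 9 pan-neuronal markers all were measured, with region means of at least 10.44. Among markers of motor and cholinergic neurons, Chat, Slc18a3 and Slc5a7 were at the floor on every array and Mnx1 on 6 of 9, so a probe set at the floor is given here as having no signal above it and not as absence of the RNA. Of the 6 sensory ganglion neuron markers with a probe set, Scn10a, Avil, Trpv1 and Runx1 were at the floor on every array and no region mean was above 2.62.

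Slc17a6 was about equally high in intermediate and dorsal pieces and about 3-fold lower in ventral ones. Its brightest probe set read 13.69, 13.53 and 13.64 in intermediate pieces of animals 1, 2 and 3. It read 13.55, 13.70 and 13.67 in dorsal pieces, against 12.02, 12.01 and 12.14 in ventral pieces. The intermediate and dorsal arrays overlapped, and all 6 lay above every ventral array.

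The difference of intermediate from ventral pieces was 1.56 ± 0.06 on the log2 scale (SE, limma, adjusted p = 0.000197), or 2.95-fold with a 95% interval of 2.63 to 3.32. That of dorsal from ventral pieces was 1.58 ± 0.06 (limma, adjusted p = 8.83e-05), or 2.99-fold with an interval of 2.67 to 3.36. Both comparisons use the same ventral arrays. Between intermediate and dorsal pieces the difference was -0.02 ± 0.06 (limma, adjusted p = 0.915), and its interval ran from -0.19 to 0.15, or 0.878-fold to 1.11-fold. Within animals the sign of this last difference was mixed, at 0.14, -0.17 and -0.03. Changes between these regions were common: 48.2% of all genes tested were called between intermediate and ventral pieces, 52.8% between dorsal and ventral pieces and 30.1% between intermediate and dorsal pieces. Intermediate and dorsal pieces were both higher than ventral ones for 17.9% of them. The genes tested include some that lay near the floor on all arrays. By size, the Slc17a6 difference ranked 410 of 13959 for intermediate against ventral pieces and 705 for dorsal against ventral pieces.

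The dimmer Slc17a6 probe set showed the same order of regions. It read 10.38, 10.12 and 10.09 in intermediate pieces and 10.08, 10.29 and 10.40 in dorsal pieces, against 8.66, 8.48 and 8.66 in ventral pieces. Those ventral values include an identical pair, so their spread comes from 2 distinct values. In the fit of all 31526 probe sets that passed the filter, its differences were 1.60 ± 0.13 for intermediate minus ventral (limma, adjusted p = 0.00115) and 1.66 ± 0.13 for dorsal minus ventral (limma, adjusted p = 0.000703), where 36.8% and 42.9% of all probe sets were called. For intermediate minus dorsal it gave -0.06 ± 0.13 (limma, adjusted p = 0.851). Over the 9 arrays the 2 probe sets correlated at 0.994, on points that share animals and regions.

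**Figure D1:**
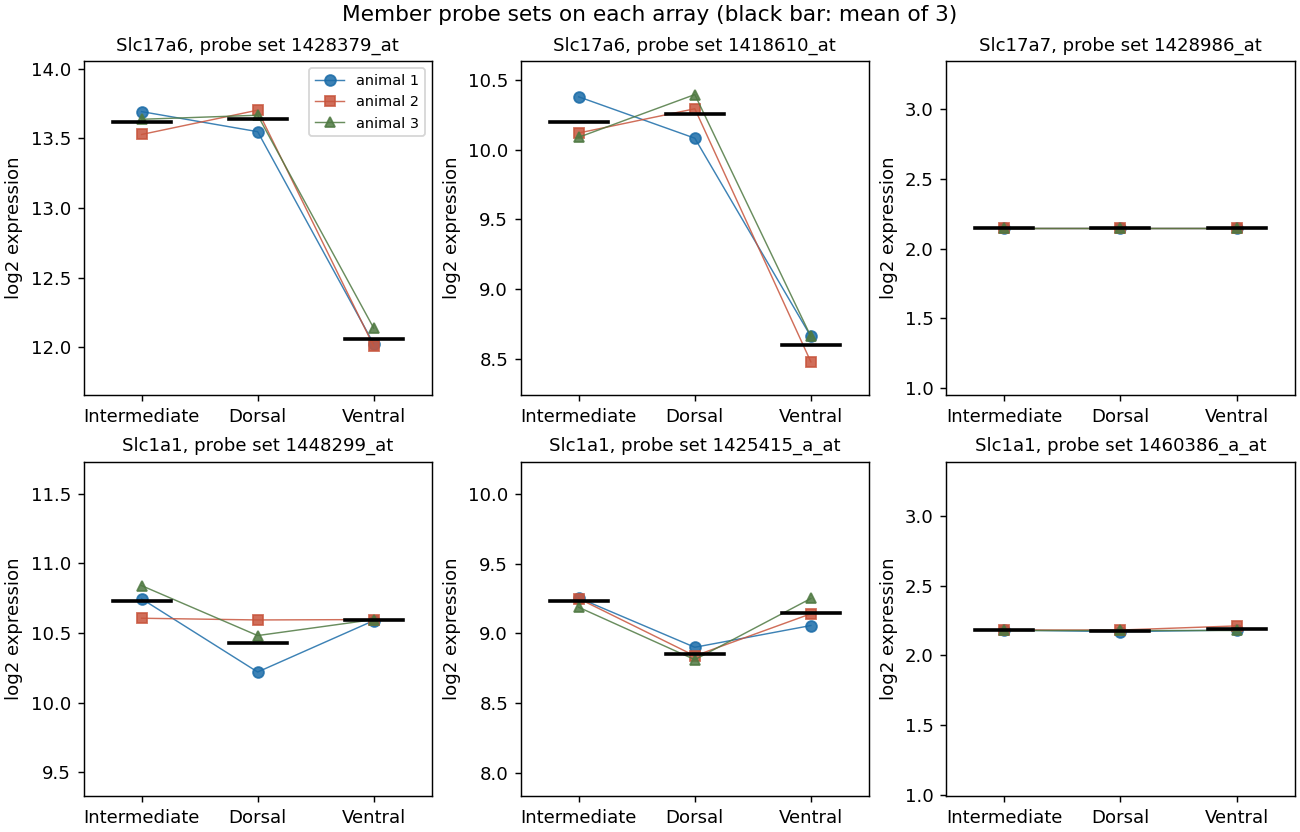
Log2 expression (vertical axis) of each of the 6 member probe sets in intermediate, dorsal and ventral pieces, with 1 symbol and thin line per animal and a black bar at the mean of 3, all panels spanning axes of equal length. Both Slc17a6 probe sets drop in ventral pieces, Slc17a7 lies on the floor of 2.15 throughout, and the brighter 2 of the Slc1a1 probe sets have their lowest mean in dorsal pieces.

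Promoter windows are shown for the transporter with the strongest signal and for the one at the floor. Each covers 250 bases before to 50 after an annotated start on the plus strand of chromosome 7 in RefSeq's GRCm38.p6 build, written 5′ to 3′. Slc17a6 has 2 annotated starts, at chr7:51621580-51621879 and chr7:51624387-51624686, and Slc17a7 has 1, at chr7:45163671-45163970. Capitals mark GGGCGG, a GC box to which Sp-family factors bind, and TAATTA, a homeodomain core, each searched on both strands.
Slc17a6, first start: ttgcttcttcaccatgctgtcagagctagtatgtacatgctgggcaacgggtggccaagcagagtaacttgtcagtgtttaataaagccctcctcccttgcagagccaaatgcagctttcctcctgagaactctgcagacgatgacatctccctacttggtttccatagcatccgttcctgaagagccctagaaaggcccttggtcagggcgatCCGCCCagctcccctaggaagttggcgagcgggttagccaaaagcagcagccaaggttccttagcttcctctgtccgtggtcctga
Slc17a6, second start: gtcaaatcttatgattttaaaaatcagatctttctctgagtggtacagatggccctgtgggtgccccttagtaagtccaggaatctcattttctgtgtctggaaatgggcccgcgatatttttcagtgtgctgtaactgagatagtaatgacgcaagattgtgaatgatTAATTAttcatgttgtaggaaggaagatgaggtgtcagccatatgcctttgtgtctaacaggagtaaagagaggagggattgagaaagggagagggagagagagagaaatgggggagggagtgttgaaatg
Slc17a7: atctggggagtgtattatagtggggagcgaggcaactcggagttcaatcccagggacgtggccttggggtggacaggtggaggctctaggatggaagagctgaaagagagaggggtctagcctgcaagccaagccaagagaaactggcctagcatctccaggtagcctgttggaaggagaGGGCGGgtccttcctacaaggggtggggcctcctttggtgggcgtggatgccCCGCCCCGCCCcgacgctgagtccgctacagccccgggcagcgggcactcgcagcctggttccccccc
The first Slc17a6 window held 1 GC box, at position -36 from the start, and 0 TAATTA. Its second window held 0 GC boxes and 1 TAATTA, at position -81. The Slc17a7 window held 3 GC boxes, 2 of which overlap by 1 base, and 0 TAATTA. Among 32851 windows of this length, 35.7% held a GC box and 5.29% a TAATTA. The G and C content was 53.7% and 43.0% in the Slc17a6 windows and 63.7% in that of Slc17a7, beside a median of 52.7%. The arrays do not tell which Slc17a6 start was in use, and these matches are letters only.

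Markers of dorsal excitatory neurons, cells that are known to use VGLUT2, were mostly highest in dorsal pieces. Of 13 such markers tested, 10 were called for intermediate minus dorsal, all lower, with a median difference of -2.00. Over all genes 14.2% were lower and 15.9% higher. The transcription factor genes Prrxl1 (-4.48 ± 0.32) and Lmx1b (-3.56 ± 0.21) are examples (limma, adjusted p of at most 0.00123). Between intermediate and ventral pieces 7 were higher and 0 lower, led by Grp (4.15 ± 0.24), and between dorsal and ventral pieces 10 were higher and 0 lower. Among the 13959 genes tested, the shares called higher in these 2 comparisons were 23.4% and 24.5%, and those called lower 24.9% and 28.2%. With 1 animal left out, 7 to 8 markers stayed lower for intermediate minus dorsal. Those higher than in ventral pieces then numbered 5 to 7 (intermediate) and 9 to 10 (dorsal). The calls of Tlx3 and Pou4f1 for intermediate minus dorsal were lost without any 1 of the animals. Of the ventral excitatory markers 3 were tested, and 1 of them, Shox2, was called, higher in intermediate than in dorsal pieces (2.17 ± 0.47, limma, adjusted p = 0.0262). Its call was lost without animal 2 or animal 3 (up to 0.151). Shox2 marks a class of excitatory ventral interneurons. The ventral list was hardly measured. The summed level of its 5 genes with a probe set ran from 6.18 to 6.29 (intermediate), 4.95 to 5.44 (dorsal) and 5.67 to 5.77 (ventral).

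Most pan-neuronal markers were also lower in ventral pieces. Of the 9 pan-neuronal markers 8 were higher in intermediate than in ventral pieces and 7 in dorsal than in ventral pieces, where 23.4% and 24.5% of all genes were higher and 24.9% and 28.2% lower. Their median differences were 0.94 and 0.49, below those of Slc17a6, and the 8 called between intermediate and ventral pieces ranged widely, from 0.29 ± 0.05 for Elavl3 (adjusted p = 0.00588, but 0.0967 without animal 3) to 2.26 ± 0.06 for the synaptotagmin gene Syt1. Nefl, a neurofilament gene, was not called there (-0.27 ± 0.09, limma, adjusted p = 0.0697) and was lower in dorsal than in ventral pieces (-1.16 ± 0.09). Glial lists were lower: 6 of 7 astrocyte markers and 7 of 8 oligodendrocyte lineage markers were lower in intermediate than in ventral pieces, and 7 of each list in dorsal than in ventral ones. The summed level of the astrocyte list ran from 16.01 to 16.08 (intermediate), 15.77 to 15.95 (dorsal) and 16.59 to 16.61 (ventral) on the log2 scale. That of the pan-neuronal list ran from 16.57 to 16.65 (intermediate), 16.35 to 16.52 (dorsal) and 16.09 to 16.13 (ventral). Markers of tissue around the cord set the intermediate pieces apart. All 3 Schwann cell markers and all 6 meningeal and fibroblast markers tested were lower there than in dorsal and than in ventral pieces, as were all 6 microglia markers. Of all genes 14.2% were lower in intermediate than in dorsal pieces and 24.9% lower than in ventral pieces. The summed Schwann cell level was 8.41 to 9.43 in intermediate pieces, 12.13 to 14.16 in dorsal pieces and 12.66 to 13.23 in ventral pieces. The part of these cell type differences in the values of Slc17a6, Slc1a1 and the genes described further on was not tested.

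The inhibitory counterpart of the vesicular glutamate transporters, Slc32a1, loads GABA and glycine into vesicles. Intermediate pieces had 11.13 ± 0.11, dorsal pieces 10.38 ± 0.13 and ventral pieces 9.58 ± 0.07 (SD, n = 3 each). Its difference of intermediate from ventral pieces, 1.55 ± 0.09, was close in size to the 1.56 ± 0.06 of Slc17a6. In contrast to Slc17a6, Slc32a1 was also higher in intermediate than in dorsal pieces, by 0.75 ± 0.09 (limma, adjusted p = 0.00479), a call lost without animal 1 or animal 3 (up to 0.0912). The difference between the 2 genes was not itself tested. Of the 6 inhibitory neuron markers tested, Slc32a1 included, 4 were higher and 2 lower for intermediate minus dorsal. Over all genes 15.9% were higher and 14.2% lower. Largest of the higher ones were Slc6a5 (1.94, limma, adjusted p = 0.000412) and Gad2 (1.26, adjusted p = 0.000455). Their calls stayed with animals or arrays left out (adjusted p up to 0.0289 and 0.0326). The 2 lower ones were Gad1, which encodes a GABA-synthesising enzyme (-1.06 ± 0.09, limma, adjusted p = 0.00165), and the transcription factor gene Lhx1 (-1.28 ± 0.09, adjusted p = 0.00112). Both were highest in dorsal pieces. For intermediate minus ventral 5 of the list were higher and 0 lower, beside 23.4% and 24.9% of the 13959 genes tested. For dorsal minus ventral 4 were higher and 1 lower, beside 24.5% and 28.2% of that same total.

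The 5 genes whose levels most resembled those of Slc17a6 over the 9 arrays, by Pearson correlation among 5489 genes that had a mean of at least 6, differed between regions (as 58% of all genes did) and had 9 distinct values, were Scg2, Dpp10, Caln1, Doc2a and Cdk5r1, at 0.997 to 0.9993. Such likeness was not rare, since 89 of the 5489 genes reached 0.99 and 656 reached 0.95, and the arrays share animals and regions. Scg2, which encodes a secretory granule protein, was 1.99 ± 0.08 higher in intermediate and 2.00 ± 0.08 higher in dorsal than in ventral pieces, with -0.01 ± 0.08 for intermediate minus dorsal. Doc2a, a calcium sensor of vesicle release, differed by 1.84 ± 0.07 and 1.89 ± 0.07 from ventral pieces. Dpp10, an auxiliary subunit of potassium channels, differed by 1.04 ± 0.05 and 1.10 ± 0.05. The calcium-binding protein gene Caln1 differed by 1.29 ± 0.04 and 1.27 ± 0.04, and Cdk5r1, which encodes an activator of the kinase Cdk5, by 1.41 ± 0.06 and 1.49 ± 0.06.

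**Figure D2:**
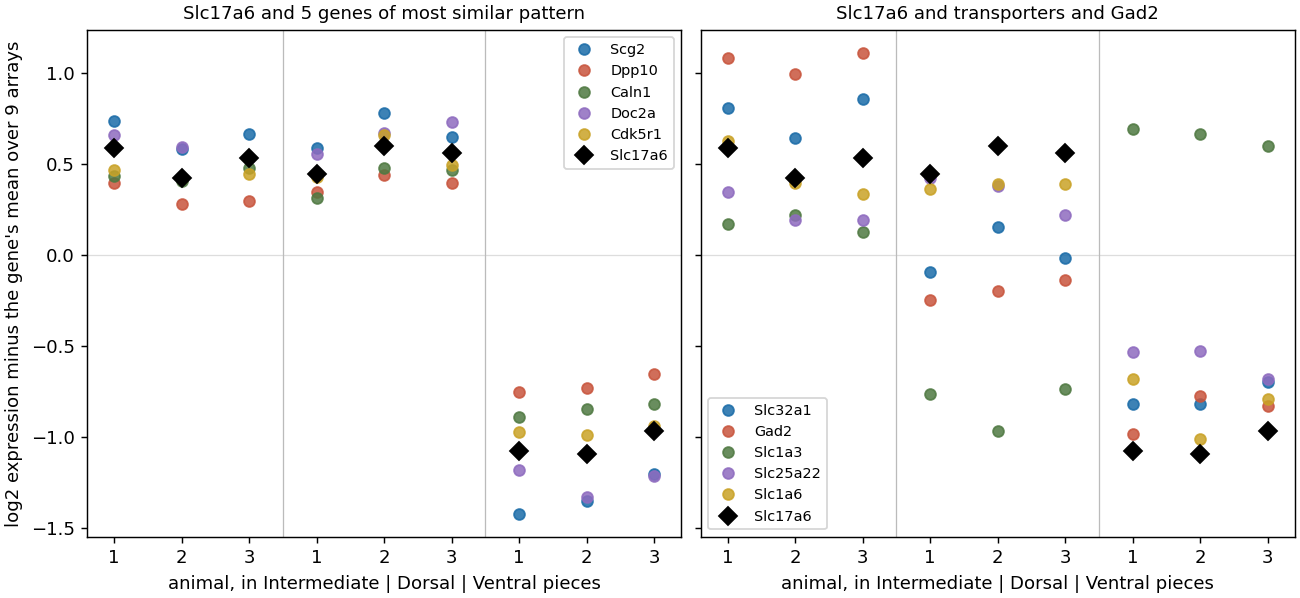
Log2 expression of each gene on each of the 9 arrays minus that gene's mean over all arrays (vertical axis), by region and animal, for Slc17a6 (black diamonds) and other genes (coloured circles). On the left the 5 most similar genes sit with Slc17a6, high on all intermediate and dorsal arrays and low on the ventral ones; on the right Slc32a1 and Gad2 are highest in intermediate pieces and Slc1a3 is highest in ventral ones. Gad1 and Lhx1, inhibitory markers that are not drawn, were highest in dorsal pieces.

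Slc17a7, by its only probe set, stood at the lowest value of 2.15 on all 9 arrays, and it did not pass the filter and was not tested. No fold can be given where every region is at the floor. The other SLC17 family genes gave little more: Slc17a1, Slc17a2 and Slc17a3 were at the floor on every array, and Slc17a9, the vesicular nucleotide transporter, had region means of 2.22 (intermediate), 2.19 (dorsal) and 2.31 (ventral). Slc17a5, which encodes the lysosomal sialic acid carrier sialin, stood at 6.72, 6.69 and 7.15 in that order and differed by -0.43 ± 0.07 in intermediate (limma, adjusted p = 0.00674, but up to 0.0676 without animal 1 or 3) and by -0.46 ± 0.07 in dorsal against ventral pieces (limma, adjusted p = 0.00474, but 0.0567 without animal 3). Its direction was thus opposite to that of Slc17a6 in both comparisons.

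By its brightest probe set, the region means of Slc1a1 lay within 0.30 of each other, with the lowest in dorsal pieces. This probe set read 10.74, 10.61 and 10.84 in intermediate pieces of animals 1, 2 and 3 and 10.22, 10.59 and 10.48 in dorsal pieces, against 10.59, 10.60 and 10.60 in ventral pieces. All intermediate arrays lay above all others, while dorsal and ventral arrays overlapped and animal 2 had nearly the same value in every region. The last 2 ventral values were identical, so that their spread was hardly measured.

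No difference of Slc1a1 passed the test by this probe set. Intermediate exceeded dorsal pieces by 0.30 ± 0.11, or 1.23-fold (95% interval 1.02 to 1.49), with an unadjusted p of 0.0386 and an adjusted p of 0.102 by limma. Intermediate minus ventral was 0.14 ± 0.11 (interval -0.14 to 0.41, limma, adjusted p = 0.358) and dorsal minus ventral was -0.16 ± 0.11 (interval -0.44 to 0.11, limma, adjusted p = 0.27). In fold terms the interval for intermediate against ventral pieces ran from 0.908 to 1.33.

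A dimmer probe set of Slc1a1 read 9.25, 9.25 and 9.19 in intermediate and 8.90, 8.84 and 8.81 in dorsal pieces, against 9.06, 9.14 and 9.25 in ventral pieces. Here every dorsal array lay below every other array, whereas intermediate and ventral arrays overlapped. In the fit of all probe sets intermediate was 0.38 ± 0.06 above dorsal, or 1.30-fold (limma, adjusted p = 0.0155), and dorsal was -0.30 ± 0.06 against ventral (limma, adjusted p = 0.0162). These comparisons called 22.6% and 42.9% of all probe sets. Intermediate minus ventral was 0.08 ± 0.06 (limma, adjusted p = 0.402). The call over dorsal was lost without any 1 of the animals, at adjusted p-values of 0.0787, 0.167 and 0.0709 for animals 1, 2 and 3. Leaving out dorsal array 2 or 3 or intermediate array 1 or 2 also lost it (0.0621 to 0.0734). That of dorsal against ventral was lost without animal 2 (0.158) or 3 (0.0719), without dorsal array 2 (0.0679) or 3 (0.0688) and without ventral array 2 (0.0631).

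The remaining Slc1a1 probe set lay between 2.17 and 2.21 on all arrays, near the floor, and its 3 intermediate values were identical. It gave no usable difference. The brighter 2 Slc1a1 probe sets correlated at 0.61 over the 9 arrays, and each of the 3 animals had a higher value in its intermediate than in its dorsal piece by both.

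**Figure D3:**
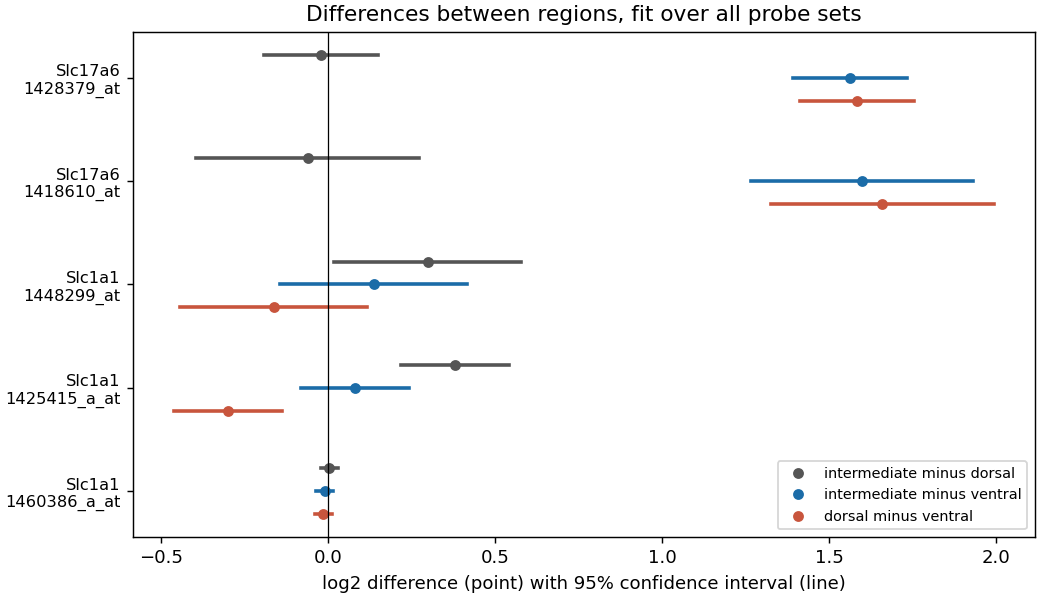
Log2 difference between regions (horizontal axis; points, with lines for the 95% confidence interval) for the 5 member probe sets in the fit of all probe sets, for intermediate minus dorsal, intermediate minus ventral and dorsal minus ventral. Both Slc17a6 probe sets lie near 1.6 against ventral pieces and near 0 between intermediate and dorsal pieces, and all Slc1a1 differences lie between -0.30 and 0.38.

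The proton pump that powers vesicular loading was higher in intermediate and dorsal than in ventral pieces, as Slc17a6 was, but by smaller amounts. Of 16 genes for its subunits, its accessory proteins and the chloride exchanger Clcn3, 15 were called for intermediate minus ventral, 14 higher and 1 lower, with a median difference of 0.41 beside 0 over all genes, of which 23.4% were higher. Largest were Atp6v0a1 (1.06 ± 0.11) and Atp6v1g2 (1.03 ± 0.08), which encode subunit isoforms abundant in neurons, Atp6v1c1 (0.83 ± 0.05) and Atp6v1b2 (0.62 ± 0.05), with adjusted p of at most 0.00137 by limma. In dorsal against ventral pieces 14 were also higher and 1 lower (24.5% of all genes were higher), with a median of 0.38, and Atp6v0a1 differed by 0.94 ± 0.11. Atp6v1g1 was the gene lower in both comparisons, at -0.14 ± 0.03 and -0.19 ± 0.03, with calls lost without animal 1 or animal 3. Between intermediate and dorsal pieces 2 of the 16 were higher and 1 lower, where 15.9% of all genes were higher and 14.2% lower. Each of these 3 calls was lost without animal 1 or animal 3. Without animal 3, 8 genes were higher in intermediate and 7 in dorsal than in ventral pieces. The call of Atp6v1g2 in dorsal pieces (0.63 ± 0.08) was then lost (adjusted p = 0.0549). A dimmer probe set of Atp6v0b gave -0.02 against ventral pieces in both comparisons, and other probe sets of Clcn3 gave down to -0.14 in intermediate and -0.32 in dorsal pieces.

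Carriers that clear glutamate from the extracellular space differed in direction. Slc1a3 (GLAST) and Slc1a2 (GLT-1), the carriers of astrocytes, were lowest in dorsal pieces. Slc1a3 averaged 13.04 ± 0.05 (intermediate), 12.04 ± 0.13 (dorsal) and 13.51 ± 0.05 (ventral; SD, n = 3 each), with differences of 0.99 ± 0.07 for intermediate minus dorsal (limma, adjusted p = 0.00119), -0.48 ± 0.07 for intermediate minus ventral (adjusted p = 0.00461, but 0.0783 without animal 1) and -1.47 ± 0.07 for dorsal minus ventral (adjusted p = 0.000125). Slc1a2 differed by 0.29 ± 0.04, -0.19 ± 0.04 and -0.48 ± 0.04 in the same order. Its call for intermediate minus dorsal was lost without animal 3 (adjusted p = 0.101). That for intermediate minus ventral was lost without animal 2 or animal 3 (up to 0.145), with single arrays left out and without the animal block (adjusted p = 0.091). Slc1a4, a carrier of neutral amino acids, differed by 0.53 ± 0.04 for intermediate minus dorsal, 0.04 ± 0.04 for intermediate minus ventral and -0.50 ± 0.04 for dorsal minus ventral. A dimmer probe set of Slc1a4 gave 0.38 for intermediate minus dorsal and -0.43 for dorsal minus ventral. Its dimmest probe set gave 0.02 and -0.06 there and was not called (limma, adjusted p = 0.795 and 0.206).

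Slc1a6, known as the neuronal carrier EAAT4 of Purkinje cells, was higher in the same regions as Slc17a6. It averaged 8.88 ± 0.15 (intermediate), 8.81 ± 0.02 (dorsal) and 7.59 ± 0.17 (ventral; SD, n = 3 each), higher by 1.28 ± 0.09 in intermediate (limma, adjusted p = 0.00049) and by 1.21 ± 0.09 in dorsal than in ventral pieces (adjusted p = 0.000373). Of the 6 other SLC1 genes tested, 3 were called for intermediate minus ventral, 1 of them higher, and 3 for intermediate minus dorsal, all higher, where 48.2% and 30.1% of all genes were called. Slc1a5 stood at 2.56 in each region and Slc1a7 at the floor.

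The mitochondrial carriers also differed in direction. Slc25a22, a glutamate carrier, averaged 8.62 ± 0.09 (intermediate), 8.72 ± 0.11 (dorsal) and 7.79 ± 0.09 (ventral; SD, n = 3 each) and was higher by 0.82 ± 0.04 in intermediate (limma, adjusted p = 0.000251) and by 0.92 ± 0.04 in dorsal than in ventral pieces (adjusted p = 9.72e-05). Its relative Slc25a18, known from astrocytes, differed by -1.24 ± 0.09 for dorsal minus ventral (adjusted p = 0.000392). Slc25a12, which exchanges aspartate for glutamate, was highest in intermediate pieces by its brightest probe set. The excess was 0.47 ± 0.05 over dorsal (adjusted p = 0.00276, but up to 0.0698 without animal 1 or 3) and 0.45 ± 0.05 over ventral pieces (adjusted p = 0.00141). Its dimmer probe sets differed. In one, intermediate minus dorsal was 0.03 (limma, adjusted p = 0.93), and both regions exceeded ventral pieces, by 0.63 (adjusted p = 0.0073) and 0.60 (adjusted p = 0.00731). Another was called higher in intermediate than in dorsal pieces (limma, adjusted p = 0.00843) but not than in ventral ones (0.35, adjusted p = 0.165).

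Enzymes of glutamate metabolism were represented by 9 tested genes. For intermediate minus dorsal 4 were called, all higher. For intermediate minus ventral 6 were called, 2 higher and 4 lower, and for dorsal minus ventral 6, all lower, with medians over the 9 of 0.11, -0.21 and -0.31 in these comparisons. Of all genes 30.1%, 48.2% and 52.8% were called in the same order. Got1, the cytosolic aspartate aminotransferase, averaged 10.46 ± 0.20 (intermediate), 9.46 ± 0.18 (dorsal) and 9.93 ± 0.03 (ventral; SD, n = 3 each). Its excess in intermediate pieces was 1.00 ± 0.10 over dorsal (limma, adjusted p = 0.00265, but 0.0579 without animal 3) and 0.54 ± 0.10 over ventral pieces (adjusted p = 0.00908, but up to 0.108 with 1 animal left out). Its mitochondrial counterpart Got2 was higher by 0.42 ± 0.06 and 0.44 ± 0.06, with calls lost at up to 0.12 and 0.0749 when 1 animal was left out, and the first of these was also lost with the mean of its probe sets. Glul, the glutamine synthetase of astrocytes, was higher by 0.25 in intermediate than in dorsal pieces (limma, adjusted p = 0.00962, but up to 0.131 without animal 1 or 3). It was -0.25 ± 0.04 in dorsal against ventral pieces (adjusted p = 0.00429, but 0.0791 without animal 3) and was not called between intermediate and ventral pieces (adjusted p = 1). A dimmer Glul probe set gave larger differences. These were 0.64 for intermediate minus dorsal (limma, adjusted p = 0.00563) and -0.82 for dorsal minus ventral (adjusted p = 0.001). With animal 3 left out, none of the enzyme genes stayed higher for intermediate minus dorsal, and 2 genes were lower for each of the other comparisons. With animal 1 left out, 1 gene was higher for intermediate minus dorsal and 2 were lower for intermediate minus ventral.

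Glutamine carriers differed in direction as well. Slc38a1, a carrier of neurons, averaged 11.80 ± 0.06 (intermediate), 11.60 ± 0.03 (dorsal) and 11.14 ± 0.04 (ventral; SD, n = 3 each), higher by 0.67 ± 0.03 in intermediate (limma, adjusted p = 0.000227) and by 0.47 ± 0.03 in dorsal than in ventral pieces (adjusted p = 0.000278). Slc38a3, a carrier of astrocytes, was higher by 0.99 ± 0.06 in intermediate than in dorsal pieces (adjusted p = 0.000913). It differed by -0.45 ± 0.06 for intermediate minus ventral (adjusted p = 0.00381, but 0.0617 without animal 2) and by -1.45 ± 0.06 for dorsal minus ventral (adjusted p = 0.000104). In all, 1 of 6 was higher and 3 lower in intermediate than in ventral pieces, and 2 higher and 3 lower in dorsal than in ventral pieces, with medians of -0.25 and -0.31. In the first comparison 23.4% of the genes tested were higher and 24.9% lower, and in the second 24.5% and 28.2%. Slc38a6, the second gene higher in dorsal than in ventral pieces (0.34 ± 0.09, limma, adjusted p = 0.0286), lost its call with single animals or arrays left out (up to 0.171).

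Cysteine taken up by EAAC1 serves glutathione synthesis, and the genes of that route were mostly lower in intermediate and dorsal than in ventral pieces. Of 5 tested, 4 were lower and 0 higher in intermediate than in ventral pieces, and 3 lower and 0 higher in dorsal than in ventral pieces, with medians of -0.51 and -0.80, where 24.9% and 28.2% of all genes were lower. Gclm, a subunit of the first enzyme of the route, differed by 0.55 ± 0.08 for intermediate minus dorsal, -0.57 ± 0.08 for intermediate minus ventral and -1.13 ± 0.08 for dorsal minus ventral (limma, adjusted p of at most 0.00751). With 1 animal left out, the call for intermediate minus dorsal was lost at up to 0.0955 and that for intermediate minus ventral at 0.0512 without animal 2. Slc3a2, a partner chain of the cystine carrier, differed by 0.43 ± 0.03, -0.51 ± 0.03 and -0.94 ± 0.03 in the same order (adjusted p of at most 0.0012). Slc7a11, of the same list, went the other way for dorsal minus ventral without a call (0.63, limma, adjusted p = 0.167). Without animal 2 it was called higher there (0.95, adjusted p = 0.0215). For intermediate minus ventral it was not called (-0.32, adjusted p = 0.478). The count of 4 dropped to 1 when animal 2 was left out and to 2 when animal 3 or ventral array 2 was.

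**Figure D4:**
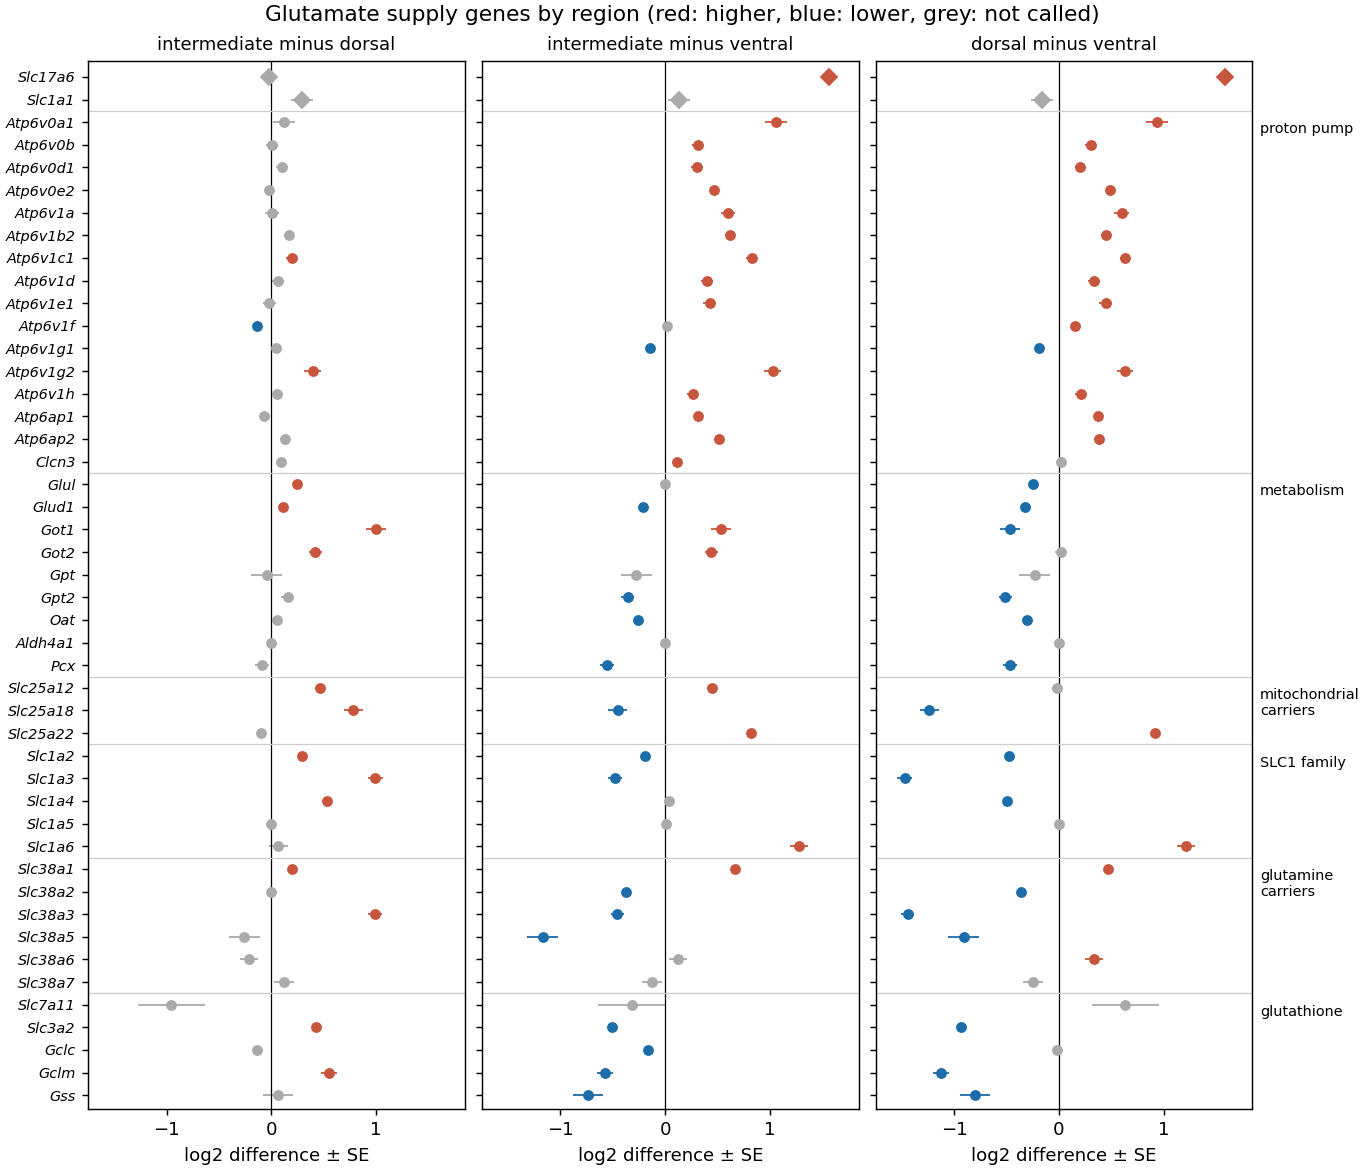
Log2 difference between regions with its SE (horizontal axis) for Slc17a6 and Slc1a1 (diamonds) and the glutamate supply genes off the floor on all arrays (circles), by list, in the 3 comparisons; red marks genes called higher, blue lower and grey not called. Slc17a6 lies farthest right against ventral pieces, the proton pump genes lie mostly right of 0 there, and Slc1a3, Slc38a3 and Slc25a18 lie left of 0.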

How the data were processed

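Whole pieces of spinal cord from 3 regions of 3 mice gave 9 arrays, grouped by the titles. Per the labels' protocols, 500 ng of total RNA was made into biotin-labelled cRNA with an Affymetrix 3′ kit and hybridised. The deposited values span 2.15 to 16.3 and were read as log2, a scale the labels leave unstated, so folds rest on that reading. For the steps by which the authors summarised, normalised and floored them, the sources used here give nothing.

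In the platform annotation 34945 probe sets had 1 symbol, 932 several and 9160 none. The brightest probe set with 1 symbol stood for each gene, and a filter at percentile 30 of the probe set means (2.15) left 13959 of 18193 genes. The filter value of 2.14606 lay just above the lowest value, 2.14597, so genes near the floor, such as Slc1a7, stayed among those tested. Shares, medians and ranks over all genes include such genes. limma 3.58.1 in R 4.3.3 fitted region with the animal as a fixed block (4 residual and 0.749 prior degrees of freedom). P-values are two-sided, adjusted by Benjamini-Hochberg over all genes, or over all 31526 probe sets that passed the same filter where a probe set is named. Calls were made at 0.05. With animal levels removed by the block, p-values rest only on how far region differences varied among these 3 animals, array noise included, and on the prior. Values after ± are SE unless marked SD. Fits were tested on simulated data, files read with data.table (version 1.17.8), and figures drawn with Python 3.11.15, pandas 2.3.3 and matplotlib 3.10.9.

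The titles give the animal of each array. Deviations from region means correlated at -0.066 to 0.246 between arrays of 1 animal (9 pairs) and at -0.18 to 0.161 between animals (18 pairs). Members and lists were chosen with earlier results of these data known, and lists are given as counts and medians without a set test. Named were the members, the 5 genes of highest correlation with each member that differed between regions, and up to 4 called genes per list and comparison by size; other examples were chosen after their values were seen. Alternatives were the block, each animal and array left out, scaling, filter, choice of probe set, samples in the fit, tied values and the prior.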

Additional observations from a re-analysis of the deposited data

How the results depend on the processing

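Slc17a6 kept its direction and side of the threshold under all 23 alternatives for intermediate minus ventral (1.50 to 1.61, adjusted p of at most 0.0156) and dorsal minus ventral (1.52 to 1.66, adjusted p of at most 0.0101). Its difference of intermediate from dorsal pieces stayed uncalled in all 23 (-0.10 to 0.06). The fit with no replicate block, which drops the animal pairing, changed no call of a member (Slc17a6 1.56 and 1.58 against ventral pieces, Slc1a1 0.30 for intermediate minus dorsal, adjusted p = 0.0636). Slc1a1 depended on the probe set. Its alternative limited to genes with 9 distinct values was not run, since it has tied values. Intermediate minus dorsal passed with the most variable probe set (0.38, adjusted p = 0.0116), the mean of all probe sets (0.23, 0.00746), arrays centred on their medians (0.37, 0.0392) and a mean of at least 6 (0.30, 0.0406), within a range of adjusted p from 0.00746 to 0.424. It also passed without dorsal array 2, and over all animals and arrays left out it ran from 0.19 to 0.44. Dorsal minus ventral passed with the most variable probe set (-0.30, 0.012) and the mean of probe sets (-0.16, 0.0112), in a range from 0.0112 to 0.765. Any difference between regions passed with the most variable probe set (range of means 0.38, adjusted p = 0.00948), the mean of probe sets (0.23, 0.00631) and without dorsal array 2, running from 0.19 to 0.44 with animals or arrays left out.

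Alternatives for the lists were chosen after the data were seen. With animals or arrays left out, proton pump genes higher than in ventral pieces numbered 8 to 14 (intermediate) and 7 to 14 (dorsal). Metabolism genes numbered 0 to 4 higher in intermediate than in dorsal, 2 to 5 lower in intermediate than in ventral and 2 to 6 lower in dorsal than in ventral pieces, and glutathione genes lower in intermediate than in ventral pieces numbered 1 to 4. Of 4512 values of list genes under alternatives, none of them for Schwann cell, meningeal, fibroblast or microglia markers, 278 lost and 56 gained a call. Apart from these, Atp6v1h for intermediate minus dorsal, uncalled at 0.05, was called at -0.15 with the mean of probe sets, and Aldh4a1, whose differences were 0, was called under quantile normalisation (0.072 for intermediate minus dorsal and -0.053 for dorsal minus ventral). The cause was not tested. Centring on medians moved the split of all calls between intermediate and dorsal pieces to 3222 higher and 1540 lower, against 2219 and 1983. Slc17a7, at the floor, has only a bound.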
